A study of Homo sapiens with 12 samples.

Results

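The genes described here are 10 genes of glucose entry and glucose sensing, read in HK2 cells, an immortalised line from the human proximal tubule. They are the sensing pair MLXIP (MondoA) and MLX, their targets TXNIP and ARRDC4, the facilitative transporters SLC2A1 (GLUT1), SLC2A2 (GLUT2), SLC2A3 (GLUT3) and SLC2A12 (GLUT12), and the sodium-coupled transporters SLC5A1 (SGLT1) and SLC5A2 (SGLT2). They were chosen by name, and each symbol matched 1 of the 62703 Ensembl gene identifiers in the files. Of the 10 genes, 7 had a TPM (transcripts per 1000000 transcripts) of at least 1 in 3 or more libraries and were tested among 14639 genes. SLC2A2, SLC2A12 and SLC5A1 did not reach that level.

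The 12 RNA-seq libraries, 3 per group in 4 groups, came from a study of fibroblast growth factor 9 (FGF9) in diabetic kidney injury. NG cells received a control vector in 5.5 mM glucose. The si-FGF9 cells received a small interfering RNA against FGF9, also in 5.5 mM glucose. HG cells were exposed to 50 mM glucose, with no vector named for them. HG + OE-FGF9 cells received a vector for overexpression of FGF9 in 50 mM glucose. The labels and the methods give NG 5.5 mM glucose, whereas the study's results text names a mannitol medium for it. That text calls the vector adenoviral, whereas the labels and methods call it lentiviral. No non-targeting siRNA is described, and the length of exposure before RNA was taken and the origin of the replicates (separate cultures or not) are not given in the sources used here. The p-values therefore measure the spread between libraries, which may be technical. HK2 is 1 line, and 8 of 12 proximal tubule markers, LRP2, CUBN, HNF4A and ANPEP among them, were below a TPM of 1 in all 12 libraries.

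MondoA and MLX form a dimer that enters the nucleus when glucose 6-phosphate rises in the cell and binds carbohydrate response elements, pairs of E-box-like sites, in the promoters of TXNIP and ARRDC4. Their products are alpha-arrestins that take glucose transporters off the cell surface, so that the loop is known to limit glucose uptake when glucose is plentiful. TXNIP also binds thioredoxin, and its mRNA is known to rise with glucose in many cell types, kidney cells included. In the proximal tubule, glucose is taken from the filtrate by SGLT2 and SGLT1 at the apical side and leaves the cell through GLUT2 and GLUT1 at the basolateral side.

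The promoters of the targets are shown because the response element is what links the sensor to them. Sequences are RefSeq promoter entries on GRCh38.p14, read along the gene's strand and ending at the base before its start. 9 of the 10 genes matched an entry. Capitals mark the letters found by a search of both strands for the E box CACGTG and for the response element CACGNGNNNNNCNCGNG, in which 2 E-box-like sites lie 5 bases apart. The TXNIP window is chr1:145996580-145996829 on the minus strand, and the ARRDC4 window is chr15:97960453-97960702 on the plus strand.
TXNIP: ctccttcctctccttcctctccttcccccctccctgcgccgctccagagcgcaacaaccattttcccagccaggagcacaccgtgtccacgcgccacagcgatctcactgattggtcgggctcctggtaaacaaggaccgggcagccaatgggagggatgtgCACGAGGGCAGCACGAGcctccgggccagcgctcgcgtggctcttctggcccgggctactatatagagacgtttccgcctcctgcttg
ARRDC4: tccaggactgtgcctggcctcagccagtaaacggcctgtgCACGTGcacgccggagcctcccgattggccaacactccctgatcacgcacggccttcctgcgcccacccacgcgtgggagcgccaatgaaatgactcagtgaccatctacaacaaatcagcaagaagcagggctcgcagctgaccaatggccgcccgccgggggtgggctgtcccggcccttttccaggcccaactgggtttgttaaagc

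The TXNIP window held a response element match, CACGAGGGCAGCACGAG, from 88 to 72 bases before the start (chr1:145996651-145996667). The ARRDC4 window held an E box from 210 to 205 bases before the start, and the window of MLX held one from 50 to 45 bases before its start (chr17:42567050-42567055). No other window of these genes held either set of letters, and a second start listed for TXNIP held neither. Of 35116 RefSeq promoters searched over the same 250 bases, 149 (0.424%) held the response element and 2228 (6.34%) the E box. The match is a description of letters and not evidence of binding in these cells.

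FGF9 was listed at a TPM of 0 in the 9 libraries of NG, HG and si-FGF9 and at 3.34, 4.03 and 3.82 in HG + OE-FGF9. The siRNA could thus not be checked against its target in these libraries. By RT-qPCR, the study detected FGF9 in NG and lists a lower mean in si-FGF9, a difference short of its significance level. A gene is called differentially expressed below when its log2 fold change was at least 1 in either direction with an unadjusted p under 0.01 in limma, the criteria of the study, and Benjamini-Hochberg adjusted p over all 14639 genes are given beside it. Differences are of mean log2(TPM + 1), a scale that makes those of genes with low values smaller. The median of all genes tested lay at -0.39 in HG versus NG, -0.79 in si-FGF9 versus NG, -0.13 in HG + OE-FGF9 versus HG and -0.08 in the 50 mM against the 5.5 mM libraries. Fold changes also followed GC content, with Spearman's rho across 14191 genes, which are not independent replicates, of 0.64, 0.57, 0.29 and 0.51 in the same order. HG replicate 3 stood apart from HG replicate 2, with a median absolute difference of 0.55 on the log2 scale. HG + OE-FGF9 replicates 1 and 2 were the closest pair of all, at 0.08. In bulk RNA, fewer cells of a type and less RNA per cell cannot be told apart.

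TXNIP was the most abundant of the 10 genes in every library. Its TPM was 1833, 1832 and 1732 in NG and 586, 656 and 522 in si-FGF9. In 50 mM glucose it was 483, 334 and 976 in HG, then 303, 307 and 587 in HG + OE-FGF9. The 3 NG libraries thus stood above the other 9, which overlapped each other whether they came from 5.5 mM or from 50 mM glucose.

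TXNIP fell in HG versus NG by 1.73 on the log2 scale (SE 0.34, 3 libraries each, limma, adjusted p = 0.00207), a 3.32-fold lower level. Without HG replicate 3, whose 976 was the highest value in 50 mM glucose, it fell by 2.16. It also fell in si-FGF9 versus NG, both in 5.5 mM glucose, by 1.62 (SE 0.34, limma, adjusted p = 0.000958). After subtraction of the median of all genes, these differences were -1.34 and -0.82. When the trend with GC content was removed from each library, TXNIP, with a transcript of 43.9% GC, still fell in HG by 1.01 (limma, adjusted p = 0.00892), whereas its difference in si-FGF9 was -0.45 (limma, adjusted p = 0.119).

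Between HG + OE-FGF9 and HG, the difference of TXNIP was -0.51, with a 95% interval from -1.24 to 0.22. Between HG and si-FGF9, which differ in glucose and in the siRNA, it was -0.12, with an interval from -0.85 to 0.62. Taken over all 50 mM against all 5.5 mM libraries, TXNIP fell by 1.18 (SE 0.24, limma, adjusted p = 0.00719), and the 6 and 6 libraries overlapped. An exact two-sided permutation test over the 924 splits of these libraries gave p = 0.0303. With the GC trend removed the difference was -0.95 and below the fold required.

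ARRDC4, the other alpha-arrestin target of the sensor, was far less abundant and had much the same pattern. Its TPM was 20.6, 18.0 and 16.5 in NG and 5.40, 6.13 and 4.50 in si-FGF9. It was 4.55, 2.16 and 8.98 in HG and 4.47, 4.41 and 5.60 in HG + OE-FGF9. NG again lay above the other 9 libraries, and HG replicate 3 was again the highest of the 50 mM libraries.

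ARRDC4 fell by 1.79 in HG (SE 0.32, limma, adjusted p = 0.00161) and by 1.61 in si-FGF9 (SE 0.32, limma, adjusted p = 0.000769), each against NG. With the GC trend removed it fell by 1.01 in HG (limma, adjusted p = 0.006), and its difference in si-FGF9 was -0.38 (limma, adjusted p = 0.145). HG + OE-FGF9 versus HG gave 0.05, with a 95% interval from -0.65 to 0.76. Over the libraries by glucose the difference was -0.95 (limma, adjusted p = 0.0131; exact permutation p = 0.0606), short of the fold required, and without HG replicate 3 it passed at -1.16. It also passed narrowly, at -1.004 without si-FGF9 replicate 3 and at -1.001 without HG + OE-FGF9 replicate 3.

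ARRDC4 amounted to between 0.646% and 1.48% of the TXNIP TPM in the 12 libraries, while TXNIP itself ranged from 303 to 1833. Pearson's r between them over the 12 libraries, on log2(TPM + 1), was 0.95. All 12 points share the 4 groups, and ARRDC4 ranked 258 of 8328 genes with a symbol and a mean TPM of at least 5 in its r with TXNIP. The 5 genes most like TXNIP outside the lists were ZFP36L1, CAMK2D, RECQL, ZNF277 and ZNF451, with r from 0.987 to 0.992. ZFP36L1, which encodes a protein that promotes decay of AU-rich mRNAs, ranged from 408 to 487 TPM in NG and from 68.8 to 240.4 in HG, and CAMK2D, a subunit of a calmodulin-dependent kinase, from 20.9 to 22.4 and from 3.86 to 11.3.

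**Figure D1:**
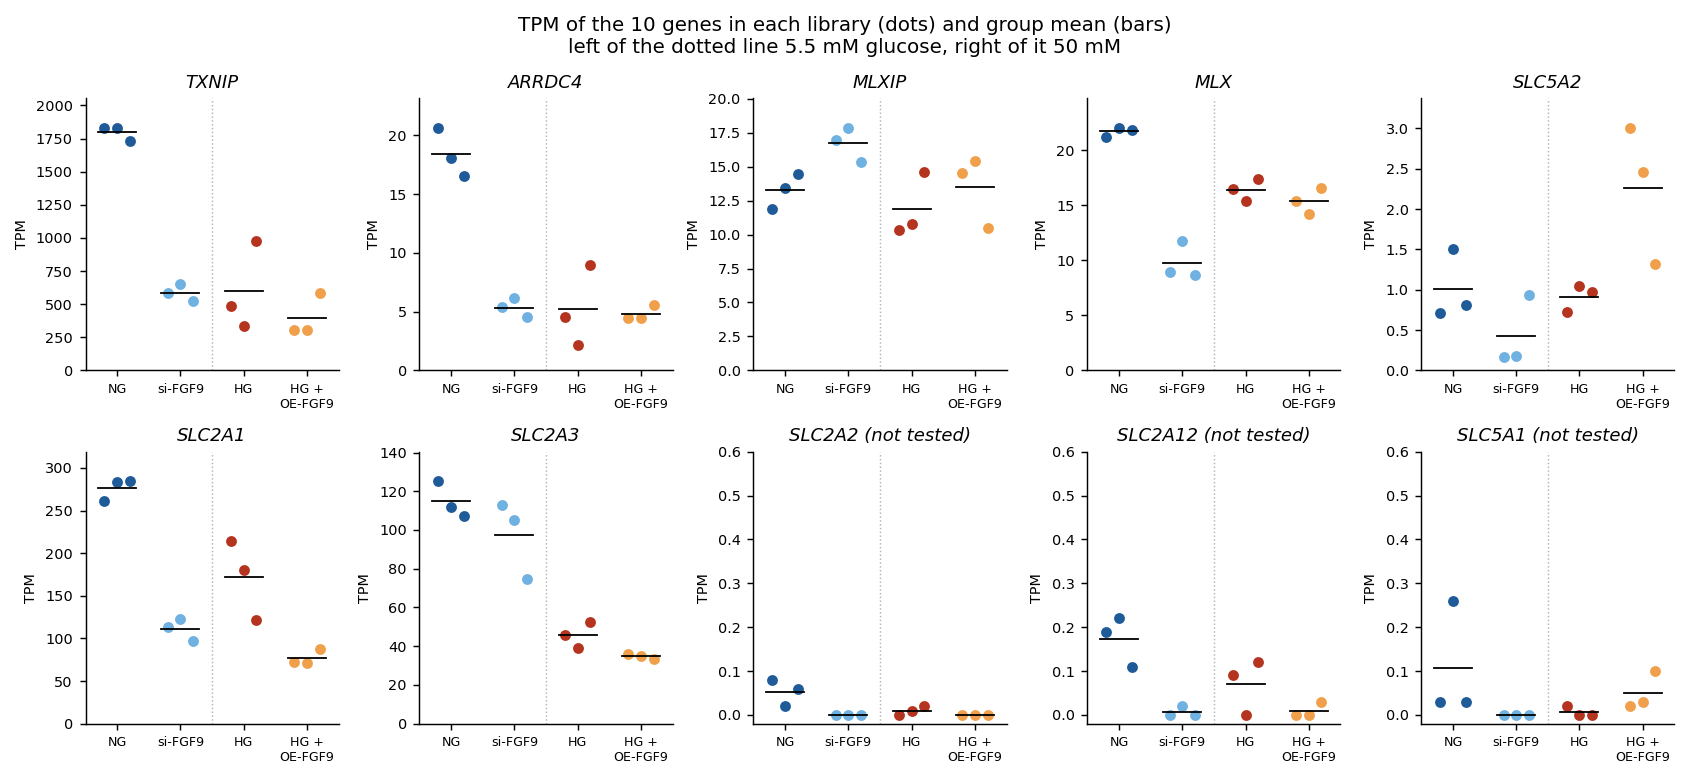
TPM of the 10 genes (vertical axes, linear, starting at or just below 0) in the 3 libraries of each group (dots, horizontal axes) with the group mean (bars). For TXNIP, ARRDC4, SLC2A1 and MLX every NG library was above all libraries of the other groups. SLC2A3 was between 74.9 and 125 in the 5.5 mM libraries and between 33.2 and 52.4 in the 50 mM libraries. SLC2A2, SLC2A12 and SLC5A1 were at most 0.26 TPM.

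Of the sensor genes, only MLX passed the test in any of the comparisons, in si-FGF9 versus NG. MLXIP, which encodes MondoA, had a TPM of 11.9, 13.4 and 14.5 in NG, 17.0, 17.9 and 15.4 in si-FGF9, 10.3, 10.8 and 14.6 in HG, and 14.5, 15.4 and 10.5 in HG + OE-FGF9. The si-FGF9 libraries were above those of NG, and the 50 mM groups overlapped NG. The difference was -0.16 in HG versus NG (95% interval -0.56 to 0.25), 0.32 in si-FGF9 versus NG (-0.09 to 0.72) and 0.17 in HG + OE-FGF9 versus HG (-0.24 to 0.57). Scaling by the median of ratios instead of TPM raised MLXIP in si-FGF9 to 1.28 (limma, adjusted p = 0.000303).

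MLX, the partner of MondoA, had a TPM of 21.2, 22.1 and 21.8 in NG, the narrowest spread of any of the 7 genes in that group on the log2 scale. It was 8.96, 11.7 and 8.67 in si-FGF9, 16.5, 15.4 and 17.4 in HG, and 15.4, 14.2 and 16.5 in HG + OE-FGF9. Thus si-FGF9 was lowest, NG highest, and both 50 mM groups lay between them and overlapped each other.

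MLX fell in si-FGF9 versus NG by 1.09 (SE 0.15, limma, adjusted p = 5.4e-05), close to the fold required. The same difference was -0.53 with the GC trend removed and -0.12 with the median of ratios. HG versus NG gave -0.38 (95% interval -0.71 to -0.06; limma, adjusted p = 0.0506). By glucose over all libraries MLX differed by 0.11 (interval -0.12 to 0.345), since the low si-FGF9 and the high NG libraries were pooled at 5.5 mM. MLX amounted to between 52.7% and 65.5% of the MLXIP TPM in si-FGF9 and to between 92.0% and 179.0% in the other 9 libraries.

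SLC2A1 encodes GLUT1, the transporter that most cells in culture use for basal glucose uptake. Its TPM was 261, 283 and 285 in NG and 113, 123 and 96.7 in si-FGF9. It was 214, 179.9 and 121 in HG and 72.4, 71.8 and 87.5 in HG + OE-FGF9. NG was highest, HG + OE-FGF9 lowest, and HG and si-FGF9 overlapped through HG replicate 3.

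SLC2A1 fell in si-FGF9 versus NG by 1.32 (SE 0.19, limma, adjusted p = 6.95e-05). In HG versus NG the difference was -0.72 (SE 0.19, limma, adjusted p = 0.00839), which did not reach the fold required. It was the only one of the 7 genes called between HG + OE-FGF9 and HG, where 3 had an unadjusted p under 0.05, and it fell by 1.11 (SE 0.19, limma, 2.16-fold lower, adjusted p = 0.00457). That value was -1.17 with the GC trend removed and -1.34 without HG replicate 3. It was -0.93 without HG replicate 1 and -0.97 with the median of ratios, both under the fold required. By glucose over all libraries SLC2A1 gave -0.62 (limma, adjusted p = 0.00905; exact permutation p = 0.156), with overlapping values.

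SLC2A3 encodes GLUT3, a high-affinity transporter best known from neurons and also found in many cultured lines. Its TPM was 125, 111.8 and 107 in NG and 112.7, 105 and 74.9 in si-FGF9. It was 45.5, 39.1 and 52.4 in HG and 36.0, 35.1 and 33.2 in HG + OE-FGF9. All 6 libraries in 50 mM glucose were below all 6 in 5.5 mM glucose, and SLC2A3 was the only one of the 7 tested genes of which this held. Over all 14639 genes, 49 (0.335%) were lower in every 50 mM library than in any 5.5 mM library.

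By glucose, SLC2A3 fell by 1.38 on the log2 scale (SE 0.12, 95% interval -1.64 to -1.12, 2.6-fold lower, limma, adjusted p = 6.35e-05). The exact two-sided permutation test gave p = 0.00216, the smallest that 6 against 6 libraries can give. The libraries of 1 glucose level come from different FGF9 treatments and are not replicates of 1 group, so that glucose and treatment are both part of this contrast. Under 22 alternatives the difference was between -1.47 and -1.25, and it was called in each. It was -1.30 after subtraction of the median of all genes and -1.25 with the GC trend removed.

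The 4 pairs of groups that differ in glucose were then read one by one, of which the 3 other than HG versus NG were added after the SLC2A3 values had been seen. These pairs share libraries with each other. SLC2A3 fell by 1.32 in HG versus NG (limma, adjusted p = 0.000601), by 1.69 in HG + OE-FGF9 versus NG (adjusted p = 2.59e-05), by 1.07 in HG versus si-FGF9 (adjusted p = 0.00237) and by 1.44 in HG + OE-FGF9 versus si-FGF9 (adjusted p = 0.000265). With the GC trend removed the HG versus NG difference was -0.76 and with the median of ratios -0.81, under the fold required, while HG versus si-FGF9 grew to -1.46 and -1.58. In the fit as described, HG versus si-FGF9 was -0.96 without HG replicate 2 and -0.95 without si-FGF9 replicate 1, under the fold required. Without HG replicate 3, SLC2A3 fell by 1.42 in HG versus NG, by 1.17 in HG versus si-FGF9 and by 1.43 by glucose.

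Within a glucose level SLC2A3 was not called. The difference of si-FGF9 from NG was -0.25, with a 95% interval from -0.62 to 0.12, and that of HG + OE-FGF9 from HG was -0.37, with an interval from -0.74 to -0.01 (limma, adjusted p = 0.169). The sign of the first was reversed by scaling, to 0.70 with the GC trend removed (limma, adjusted p = 0.00151). With the median of ratios it was 0.77 (limma, adjusted p = 0.00146). Both had a low adjusted p and were still under the fold required.

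Reads can be shared with SLC2A14, a near-identical copy of SLC2A3 on the same chromosome. Of the 4365 windows of 50 bases in the longest SLC2A3 transcript, 886 (20.3%) also occur in SLC2A14 transcripts. SLC2A14 had a TPM between 0.60 and 1.33 in NG and between 0 and 0.14 in the other 9 libraries, at most 1.19% of the SLC2A3 value in any library.

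**Figure D2:**
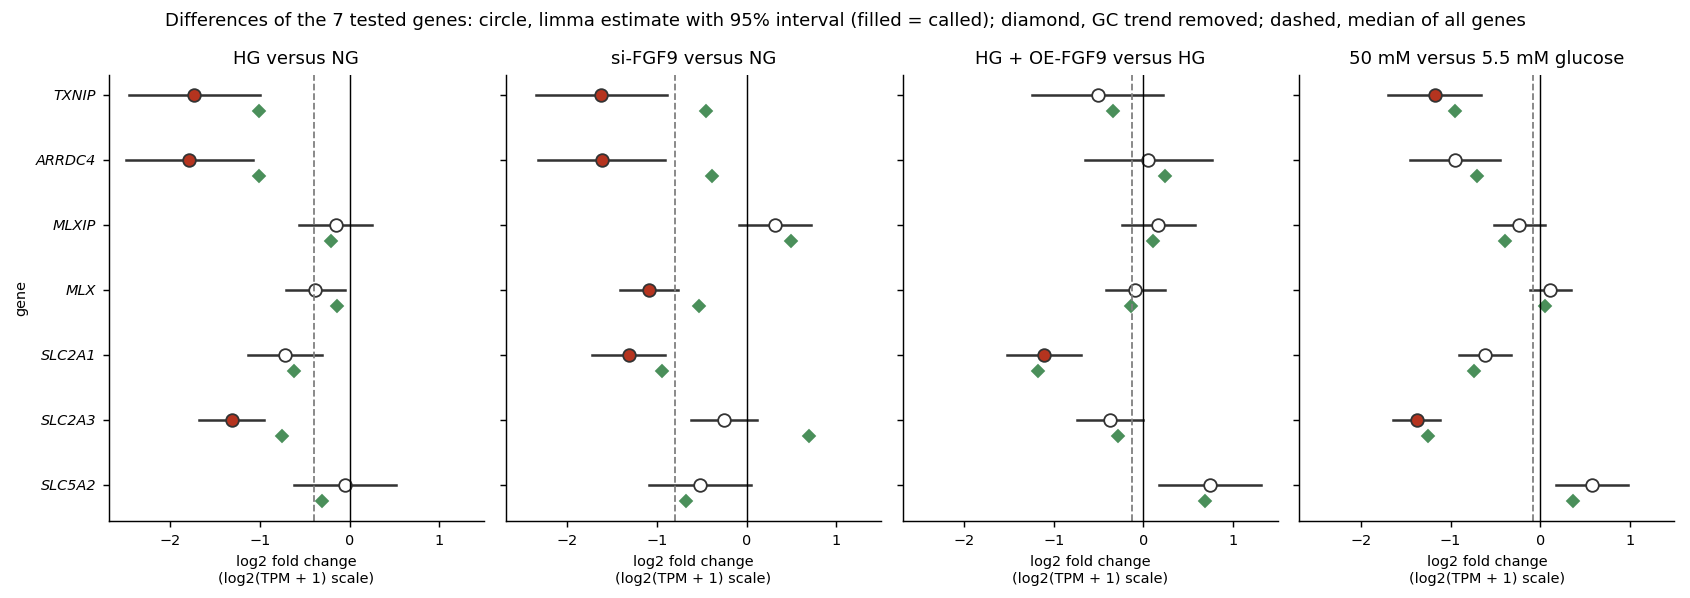
Log2 fold changes (horizontal axes, log2(TPM + 1) scale) of the 7 tested genes (vertical axis) in 4 comparisons, as limma estimates with 95% intervals (circles, filled where called), with the GC trend removed (diamonds) and beside the median of all genes (dashed lines). SLC2A3 lay at -1.38 by glucose and at -0.25 in si-FGF9 versus NG, whereas TXNIP was at -1.73 in HG and -1.62 in si-FGF9.

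Counted together, 3 of the 7 tested genes passed the criteria in HG versus NG, where 24.4% of all genes did. These were TXNIP, ARRDC4 and SLC2A3. In si-FGF9 versus NG 4 passed (TXNIP, ARRDC4, SLC2A1 and MLX), against 47.6% of all genes, so that a share of this size was near the background. Every one of these genes was lower than in NG, as were 3328 of the 3570 genes called in HG and 6181 of the 6966 called in si-FGF9.

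The split between higher and lower genes depended on scaling. Of the genes called, 6.78% were higher in HG versus NG and 11.3% in si-FGF9 versus NG, and with the median of ratios these shares were 46.3% and 51.8%. The shares went from 52.4% to 64.1% in HG + OE-FGF9 versus HG, and from 37.6% to 50.1% by glucose. In the pairs described above as added, they went from 17.6% to 49.1% in HG + OE-FGF9 versus NG, from 87.3% to 28.5% in HG versus si-FGF9 and from 81.7% to 43.5% in HG + OE-FGF9 versus si-FGF9. Under that scaling TXNIP and ARRDC4 still passed in HG, both lower, whereas in si-FGF9 MLXIP alone passed, as higher. Of all genes, 1064 were then called higher and 1235 lower in HG versus NG, and 2785 and 2595 in si-FGF9 versus NG. The difference of TXNIP in si-FGF9 was then -0.58 and that of SLC2A1 -0.29.

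In HG + OE-FGF9 versus HG 1 of the 7 genes passed, SLC2A1, where 5.61% of all genes did. By glucose over all 12 libraries 2 passed, SLC2A3 and TXNIP, where 3.58% of all genes did. In the comparisons added after the values were seen, 4 passed in HG + OE-FGF9 versus NG (SLC2A1, SLC2A3, TXNIP and ARRDC4, all lower), against 39.7% of all genes. In HG versus si-FGF9 SLC2A3 alone passed, against 11.1%, and in HG + OE-FGF9 versus si-FGF9 SLC2A3 passed as lower, against 9.00%. SLC5A2 was past both thresholds there as well, but it had entered the test only through HG + OE-FGF9 and is not counted. The median of the 7 genes was -0.72 in HG versus NG, -1.09 in si-FGF9 versus NG, -0.09 in HG + OE-FGF9 versus HG and -0.62 by glucose.

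SLC2A1 and SLC2A3 held most of the transcripts of the SLC2 family in every library, and their proportions differed between groups. Their TPM made up between 79.8% and 93.7% of the summed TPM of the 14 genes, a sum that was 413, 425 and 421.5 in NG and 249, 250.1 and 194 in si-FGF9. HG had sums of 291, 255 and 201, and HG + OE-FGF9 of 134.4, 134 and 149. TPM are set per transcript length, which allows levels of different genes to be compared, although fold changes here also followed GC content. The SLC2A3 transcript has 45.8% GC and that of SLC2A1 54.8%. In HG versus NG they were at -1.32 and -0.72, and at -0.76 and -0.62 with the GC trend removed. In si-FGF9 versus NG they were at -0.25 and -1.32, and at 0.70 and -0.94 with that trend removed.

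The SLC2A3 level was 48.0%, 39.4% and 37.7% of that of SLC2A1 in NG. In si-FGF9 it was 99.8%, 85.2% and 77.5%, whereas HG had 21.3%, 21.7% and 43.2%, and HG + OE-FGF9 had 49.8%, 48.9% and 38.0%. The si-FGF9 libraries thus had the highest ratios, above all 9 others, and HG replicates 1 and 2 the lowest. HG replicate 3 was within the range of NG. An exact permutation test of 3 against 3 libraries cannot give a p below 0.1, and the ratios were not tested.

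**Figure D3:**
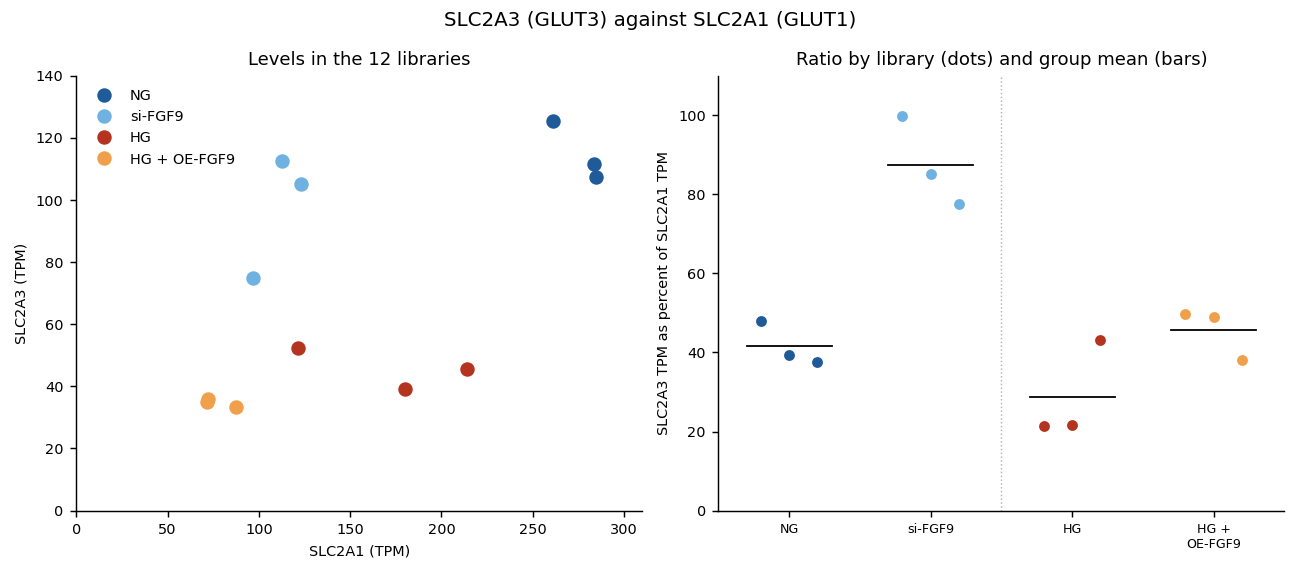
TPM of SLC2A3 against TPM of SLC2A1 in the 12 libraries (left, both axes linear) and SLC2A3 as a percent of SLC2A1 by group (right; dots are libraries, bars are group means). The si-FGF9 libraries had SLC2A3 of 74.9 to 112.7, with 2 of the 3 below all NG libraries, and SLC2A1 of 96.7 to 123, and their ratios were between 77.5% and 99.8%.

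The apical transporters SLC5A1 and SLC5A2 and the basolateral SLC2A2 were scarce in these cells, whereas SLC2A1, also basolateral, was not. SLC5A2, the SGLT2 that is the target of the gliflozin drugs, had a TPM of 0.71, 1.50 and 0.81 in NG, 0.16, 0.18 and 0.93 in si-FGF9, 0.72, 1.04 and 0.97 in HG, and 3.01, 2.46 and 1.32 in HG + OE-FGF9. The highest values were in HG + OE-FGF9, although its replicate 3 was below NG replicate 2. Outside HG + OE-FGF9 it reached a TPM of 1 in 2 of 9 libraries, so that SLC5A2 was tested only through the group where it was high, and its comparisons with that group are given as a description. The difference from si-FGF9 was 1.20, above the fold required. In HG + OE-FGF9 versus HG the difference was 0.74, in HG versus NG -0.05 (95% interval -0.62 to 0.51), and by glucose 0.57, all under the fold required.

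SLC5A1, the SGLT1 of the late proximal tubule and the gut, was listed between 0 and 0.26 TPM. SLC2A2, the GLUT2 of the basolateral membrane, was listed between 0 and 0.08, and at 0 in all 6 libraries of si-FGF9 and HG + OE-FGF9. SLC2A12, the GLUT12 first described in a breast cancer line, was between 0.11 and 0.22 in NG and between 0 and 0.12 elsewhere. With the depth unknown, no fold or limit was computed for these 3 genes.

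The other genes of transport and sensing were read from lists chosen with earlier results of these data known, against the same backgrounds of 24.4% in HG versus NG and 3.58% by glucose. Of the 14 SLC2 genes, 8 were tested, and in HG 1 was higher and 2 were lower. SLC2A6, a transporter-like protein of lysosomes, rose by 1.27 in HG (limma, adjusted p = 0.0102). Its TPM was 3.66, 4.73 and 5.10 in NG and 15.9, 19.9 and 5.49 in HG, so that replicate 3 was close to NG, and without it the rise was 1.79. SLC2A13, a proton-coupled myo-inositol transporter, fell by 1.76 (limma, adjusted p = 0.00169), from between 9.03 and 10.1 TPM in NG to between 0.82 and 4.47 in HG.

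Of the 12 SLC5 genes 3 were tested, and SLC5A3 alone passed. It encodes the sodium-coupled myo-inositol transporter SMIT1, known as a gene that hyperosmotic medium induces. SLC5A3 had a TPM of 14.6, 15.8 and 15.3 in NG and 1.69, 1.89 and 1.04 in si-FGF9. In 50 mM glucose it was 3.09, 1.77 and 5.88 in HG, then 0.69, 0.69 and 1.75 with FGF9 overexpressed. It fell in HG by 1.93 (limma, adjusted p = 0.00107), and by glucose by 1.13 (limma, adjusted p = 0.00635). NG stood above the other 9 libraries, as for TXNIP.

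In the network of MLX and MAX, which pair with the same family of E-box proteins, 11 of 12 genes were tested, and 3 were called in HG, all lower. MXI1 and MGA, partners of MAX, fell by 1.39 and 1.20 (limma, adjusted p = 0.00176 and 0.000844), and MYC, the proto-oncogene, fell by 1.15 (limma, adjusted p = 0.00147). By glucose MXD1, another MAX partner, was the only call and fell by 1.26 (limma, adjusted p = 0.00824). The median of the list was -0.60 in HG and -0.19 by glucose, beside -0.39 and -0.08 for all genes. MLXIPL, the ChREBP that shares MLX with MondoA, was between 0.17 and 1.80 TPM in the 12 libraries and was not called in HG or by glucose.

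Of the 6 alpha-arrestins 5 were tested, and 3 fell in HG with a median of the list of -1.73. ARRDC3, which like TXNIP and ARRDC4 binds ubiquitin ligases, was the third, with a fall of 2.05 (limma, adjusted p = 0.000612). By glucose TXNIP alone was called. In the thioredoxin system 1 of 8 tested genes fell in HG, thioredoxin reductase TXNRD1, by 1.76 (limma, adjusted p = 0.00504), and the list had a median of 0.05. TXN, the thioredoxin that TXNIP binds, differed by -0.03 in HG.

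Among hexokinases and enzymes of glucose 6-phosphate, the signal of the sensor, 1 of 8 tested genes fell in HG. It was the gene HK2 for hexokinase 2, not to be confused with the name of the line, which fell by 1.51 (limma, adjusted p = 0.000694). The list's median was 0.18 in HG. Of the AMPK subunits and their kinase, which mark TXNIP for degradation and respond to low energy, 4 of 7 tested genes fell in HG, led by PRKAA1 at -1.69, PRKAB2 at -1.58 and PRKAA2 at -1.47. By glucose, limma called 0 genes of the lists of hexokinases, AMPK and thioredoxin, with 3, 4 and 4 genes at an unadjusted p under 0.05.

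For transporter trafficking and turnover, 4 of 10 genes fell in HG. STXBP3, a syntaxin-binding protein of vesicle fusion, fell by 2.14, ITCH, a ubiquitin ligase known to act on TXNIP, by 1.76, and VPS35, a core subunit of the retromer that recycles GLUT1, by 1.45 (limma, adjusted p = 0.00334, 0.00214 and 0.0011). STXBP3 also fell by glucose, by 1.02 (limma, adjusted p = 0.0366). The lists of AMPK and of trafficking had medians of -1.10 and -0.98 in HG.

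In si-FGF9 versus NG, at the same 5.5 mM glucose, where 47.6% of all genes were called, the falls of these lists were at least as frequent. The genes that fell there were 7 of 10 for trafficking, 4 of 7 for AMPK, 5 of 11 in the network of MLX and MAX, with 1 higher, and 3 of 5 alpha-arrestins. STXBP3 fell by 3.49, ITCH by 2.34, VPS35 by 2.05, ARRDC3 by 3.12 and SLC5A3 by 2.69 (limma, adjusted p = 4.22e-05, 8.05e-05, 1.89e-05, 6.26e-06 and 1.86e-05).

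Many of these genes are low in GC, and the tenth of all genes lowest in GC had a median of -1.22 in HG and -1.79 in si-FGF9. The trafficking list had a median GC of 42.3%. With the GC trend removed, 6.84% of all genes were called in HG versus NG and 24.3% in si-FGF9 versus NG. These shares include FGF9, although it was listed at a TPM of 0 in every library of NG, HG and si-FGF9. It was called higher by 1.09 in HG (limma, adjusted p = 0.00579) and by 1.63 in si-FGF9 (limma, adjusted p = 0.00013). The correction can thus create differences for genes near 0, whose corrected values are not reliable. In HG the falls then numbered 1 for trafficking (STXBP3, by 1.02), 0 for AMPK, 2 for the alpha-arrestins (TXNIP and ARRDC4), 1 for the network of MLX and MAX (MYC, by 1.02), 1 for the thioredoxin system (TXNRD1, by 1.11), 1 for the hexokinases (HK2, by 1.25) and 0 for the SLC2 and SLC5 families. ITCH, VPS35, ARRDC3 and SLC5A3 were then at -0.69, -0.54, -0.94 and -0.83 in HG, under the fold required. In the thioredoxin system 1 gene was also higher. In si-FGF9 the trafficking list then had 1 fall, that of STXBP3 by 1.85, and AMPK had 1. ITCH and VPS35 were at -0.73 and -0.63 there, under the fold required. The alpha-arrestins had 1 fall (ARRDC3, by 1.47), the SLC5 family 1 (SLC5A3, by 1.05) and the SLC2 family 0. The network of MLX and MAX had 2 falls and 1 gene higher in si-FGF9. The thioredoxin system had 2 falls and 3 genes higher, and the hexokinases 1 fall and 2 higher. By glucose HK2, at -1.03, was the only gene of the lists called beside SLC2A3, where 2.05% of all genes were called.

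HG replicate 3 decided some of the calls made without that correction. Without it the shares of all genes called were themselves larger, 32.6% in HG versus NG and 7.31% by glucose. Of the 10 trafficking genes, 7 then fell in HG, with NEDD4L, SNX27 and TBC1D4 added at -1.34, -1.24 and -1.06, and HKDC1, a hexokinase-like enzyme, fell by 1.18. MYC, at -0.996, no longer reached the fold required, and MXD1 fell by 1.58. By glucose SLC2A6 rose by 1.20, and SLC2A13 and ITCH fell by 1.08 and 1.11.

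**Figure D4:**
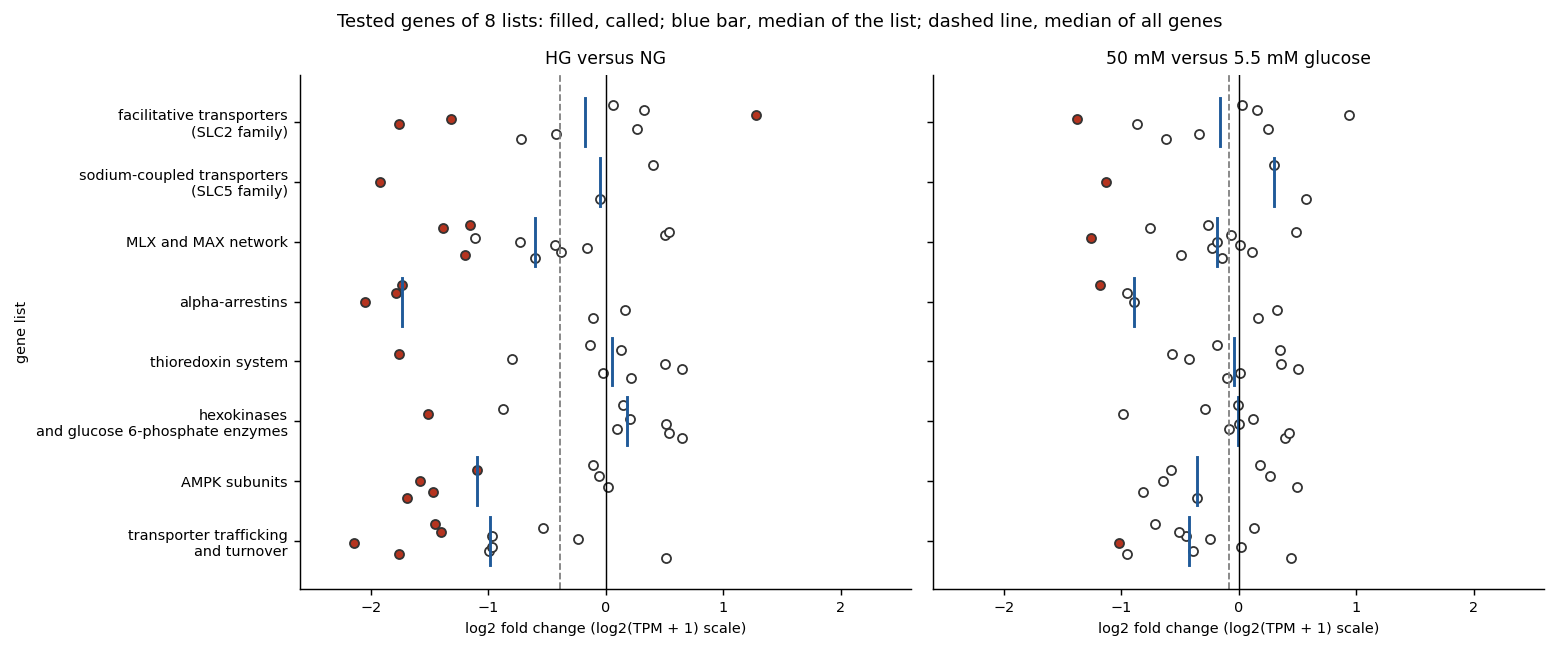
Log2 fold changes (horizontal axes, log2(TPM + 1) scale) of the tested genes of 8 lists (vertical axis) in HG versus NG and by glucose; filled circles were called, blue bars are list medians and dashed lines the medians of all genes, -0.39 and -0.08. The alpha-arrestins had a median of -1.73 in HG, and by glucose few genes of any list were called.

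The genes most like SLC2A3 over the 12 libraries were looked up after its values had been seen. Outside the lists the first 3 were LUC7L3, HES1 and FNBP4, with Pearson's r from 0.952 to 0.961 on log2(TPM + 1). HES1, a repressor downstream of Notch, ranged from 45.1 to 52.0 TPM in NG, 29.3 to 42.2 in si-FGF9, 17.9 to 26.7 in HG and 18.3 to 23.3 in HG + OE-FGF9. Its libraries separated by glucose without overlap, as those of SLC2A3 did. TXNIP had an r of 0.76 with SLC2A3, and SLC2A1 one of 0.59.

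Markers of other cell types were read beside these values. The summed TPM of 7 fibroblast markers was between 62.5 and 89.2 in NG and between 11.6 and 41.0 in the other 9 libraries, most of it from LUM, with COL1A2, COL3A1, PDGFRA and PDGFRB below a TPM of 1 in all libraries. Like TXNIP and ARRDC4, this sum was highest in NG, and its part in those results was not tested. The 4 endothelial markers summed to at most 0.15, and the 6 markers of other nephron segments to at most 0.14. Of the 5 leukocyte markers, PTPRC, CD3E and CD79A were below 1, and the sum, nearly all from CD68, was between 111 and 164. The 6 epithelial markers, keratins for the most part, summed to between 945 and 1570, with CDH1 below 1, and limma called 0 of the 5 tested in HG versus NG and by glucose, with 1 and 2 at an unadjusted p under 0.05. EPCAM, an epithelial adhesion protein, fell by 1.74 in si-FGF9 versus NG and by 1.81 in HG + OE-FGF9 versus NG (limma, adjusted p = 0.00232 and 0.00214), 2 comparisons in which TXNIP, ARRDC4 and SLC2A1 fell too. It was the only 1 of the 5 tested epithelial markers called there, and the other 4 were not called. With the GC trend removed, EPCAM was at -0.90 in si-FGF9 (limma, adjusted p = 0.039), under the fold required. The part of EPCAM in those results was not tested. Without HG replicate 3, EPCAM fell by 1.54 in HG, and COL1A1, at -0.90, was no longer called.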

How the data were processed

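HK2 cells of 4 groups were sequenced, 3 libraries each, grouped by the sample labels. The authors deposited TPM for 62703 Ensembl identifiers, scaled to a sum of 1000000 per library and given to 2 decimals. The 12 library files equalled the table of the whole series. The submitters' processing notes name Bowtie 0.12.2 and mm8, a mouse build, with no role, although the identifiers are human. Any other aligner, the counter and the annotation are not given in the sources used here. TPM keep no depth, so that no count test, interval for counting error or test of sampling noise between replicates was possible, and precision was judged from 3 libraries.

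Values were tested as log2(TPM + 1) with limma 3.58.1 in R 4.3.3, with an empirical Bayes trend, all 12 libraries in one fit and the group as the only term, over genes whose TPM reached 1 in at least 3 libraries. The thresholds were a log2 fold change of 1 and p under 0.01. The fit was tested on simulated data. Single genes were also compared by glucose with an exact permutation test over 924 splits, which treats the libraries of different treatments as exchangeable. Symbols came from a separate list of gene names, GC content and gene positions from GENCODE release 29 on GRCh38, and promoters from RefSeq on GRCh38.p14. GC trends were natural splines with 5 degrees of freedom.

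The 10 genes, the lists and the tests were chosen with earlier results of these data known. All 10 are named, with SLC2A14 and FGF9. From each list at most 3 genes are named, those with the largest change among genes called in HG versus NG or by glucose, and TXN, MLXIPL, the markers and the genes whose call HG replicate 3 decided were named after their values had been seen. The genes most like TXNIP have the highest Pearson's r among genes outside the lists with a mean TPM of at least 5. Alternatives were other pseudocounts, filters, scalings and thresholds, the replicate block, fits on the compared libraries alone and each library left out.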

Additional observations from a re-analysis of the deposited data

How the results depend on the processing

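Over 22 or 23 alternatives for each comparison, no called difference of the 7 tested genes changed its sign. The main numbers of genes called were 3 in HG versus NG and 4 in si-FGF9 versus NG. They were 1 in HG + OE-FGF9 versus HG and 2 by glucose. In HG versus NG the number was 2 (TXNIP and ARRDC4) with the median of ratios and 2 with the GC trend removed. SLC2A3 was lost in both. In si-FGF9 versus NG it was 1 with the median of ratios (MLXIP, higher) and 0 with the GC trend removed, with or without the replicate block. With that trend removed and no block, 6.84% of all genes were called in HG versus NG and 24.3% in si-FGF9 versus NG. In HG + OE-FGF9 versus HG it was 0 with the median of ratios, where 502 of all genes were called higher and 281 lower. By glucose it was 1 (SLC2A3) with the GC trend removed, with or without the replicate block. The share of all genes called by glucose with that trend removed and no block was 2.05%. Leaving out each library in turn gave between 0 and 1 genes in HG + OE-FGF9 versus HG (0 without HG replicate 1) and between 0 and 1 in HG versus si-FGF9 (0 without HG replicate 2 and 0 without si-FGF9 replicate 1, where SLC2A3 was at -0.96 and -0.95), and between 2 and 3 by glucose. The causes of these changes were not tested, except that a scaling or GC correction moves the median of all genes to near 0 by construction.

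The replicate numbers did not pair the libraries, since same-numbered libraries of different groups had correlations of their deviations between -0.44 and 0.25, with 3 of 18 over 0.1. With the replicate number as a block, the genes called numbered 3 in HG versus NG, 4 in si-FGF9 versus NG, 1 in HG + OE-FGF9 versus HG and 2 by glucose. Averaging HG + OE-FGF9 replicates 1 and 2 to 1 library, chosen after the data were seen, gave a SLC2A3 difference by glucose of -1.39. Of 49 single values (7 genes in 7 comparisons), 17 were called. The 17 include SLC5A2 in HG + OE-FGF9 versus si-FGF9, which is not counted above because that gene entered the test only through HG + OE-FGF9. Of the 17, 9 lost the call under some alternative, and SLC5A2 was not among those. Of the values that were not called, 4 gained a call under some alternative. The sign changed under some alternative for 11 of the values that were not called. A fit on the compared libraries alone gave nothing new by glucose, where all 12 are compared. Depth is unknown, so that low values such as those of SLC5A2 have no counting error.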
